A study of Mus musculus with 6 samples.

Results

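The transcriptome described here is that of wild-type Id4-GFP spermatogonia, the male germ cells that hold the stem cells of sperm production. It was read from the 3 Dnmt3A WT/WT libraries, chosen by their genotype label out of 6 libraries in the series, and the 3 Dnmt3A KO/KO libraries were not used. The WT/WT cells came from male C57BL/6 mice at 10 days post partum and were sorted as bright and medium for the fluorescence of an Id4-GFP reporter. The labels equate this gate approximately with spermatogonial stem cells, so a sorted sample is a mixture by design and not a purified stem cell. They do not say whether the 3 samples came from separate animals or how many animals were pooled, so the SD given here measures the spread between samples, which may be technical. As 1 group is described, no contrast was tested and no p-value is given.

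Spermatogonial stem cells divide either to renew themselves or to give progenitors, which then differentiate under retinoic acid and enter meiosis. Self-renewal depends on GDNF, a factor from the neighbouring Sertoli cells that binds the co-receptor Gfra1 and signals through the receptor tyrosine kinase Ret. Id4, an inhibitor of DNA binding by helix-loop-helix factors, marks the cells nearest to the stem cell state, and Zbtb16 (also called PLZF) marks undifferentiated spermatogonia more widely. Ddx4 (also called VASA) is an RNA helicase of all germ cells. Protamines, which replace histones in the sperm nucleus, are made only after meiosis.

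The sequence before the start of 4 genes shows how differently built promoters lie beside the levels reported below. The genes are Id4, whose reporter set the gate, Ddx4, the general germ cell gene, Sycp1, a gene of the meiotic synaptonemal complex that was read at a high level, and Prm1, a protamine gene that had no read. Each line gives the 250 bases before the RefSeq start (RefSeq, GRCm38.p6), 5' to 3' on the strand of the gene, with CG dinucleotides and the letters CACGTG in capitals.
Id4: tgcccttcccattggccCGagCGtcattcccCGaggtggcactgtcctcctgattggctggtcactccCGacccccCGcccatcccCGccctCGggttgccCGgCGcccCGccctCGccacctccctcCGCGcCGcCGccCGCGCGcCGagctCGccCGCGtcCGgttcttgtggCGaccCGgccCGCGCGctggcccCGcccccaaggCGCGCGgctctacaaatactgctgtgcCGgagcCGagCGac
Ddx4: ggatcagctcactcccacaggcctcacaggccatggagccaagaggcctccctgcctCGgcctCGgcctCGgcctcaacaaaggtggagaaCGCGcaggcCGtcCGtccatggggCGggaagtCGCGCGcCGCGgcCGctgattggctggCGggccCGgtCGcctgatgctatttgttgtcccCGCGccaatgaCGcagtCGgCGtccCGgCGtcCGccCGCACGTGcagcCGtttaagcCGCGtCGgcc
Sycp1: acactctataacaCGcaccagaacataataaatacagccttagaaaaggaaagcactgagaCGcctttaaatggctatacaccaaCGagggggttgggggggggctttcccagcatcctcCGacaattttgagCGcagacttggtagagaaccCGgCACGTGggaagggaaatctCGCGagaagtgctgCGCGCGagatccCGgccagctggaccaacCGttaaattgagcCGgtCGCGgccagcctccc
Prm1: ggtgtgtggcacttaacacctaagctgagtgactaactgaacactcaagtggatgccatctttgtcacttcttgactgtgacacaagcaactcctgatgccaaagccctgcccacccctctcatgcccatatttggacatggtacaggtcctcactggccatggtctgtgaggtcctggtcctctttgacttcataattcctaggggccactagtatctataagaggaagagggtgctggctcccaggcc
The Id4 window is chr13:48260866-48261115 (plus strand) and holds 35 CG, and the Ddx4 window is chr13:112652311-112652560 (minus strand) and holds 31. The Sycp1 window, chr3:102936101-102936350 (minus strand), holds 17 CG, and that of Prm1, chr16:10796824-10797073 (minus strand), holds 0. Ddx4 and Sycp1 each contain CACGTG, the core letters of an E-box, and Id4 and Prm1 do not. The Ddx4 coordinates given below come from another annotation (GENCODE), whose start at 112652475 lies inside the window shown. By that start the CACGTG of the Ddx4 window lies within the gene.

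Depth was similar in the 3 libraries. Gene rows summed to 45636398, 48423509 and 42681201 counts in replicates 1, 2 and 3, and a level is given as CPM, the count scaled to a library of 1000000 gene counts. A level of 3 counts, taken as the limit that a count of 0 allows, corresponded to 0.0657, 0.0620 and 0.0703 CPM, and to 0.0219 CPM when the libraries were pooled. These limits cover counting error only. Nuclear protein-coding genes took 62.3% ± 0.795 of the gene counts (SD, n = 3), and a pair of 57-base rows annotated as miRNA genes took 14% ± 0.789. What reads these 2 rows hold was not settled, and they are part of the total behind every CPM. All mitochondrial rows together held 9.65% ± 0.248, of which most lay in the ribosomal RNA genes (8.07% ± 0.287 of the gene counts). Libraries differed by more than sampling noise in every pair, with a chi-square per degree of freedom between 9.63 and 11.4. This was taken over all gene rows with a count in the pair, the rows annotated as miRNA and ribosomal RNA included. The common biological coefficient of variation from edgeR was 12.2%. That value was 9.44% without replicate 3, against 11.9% without replicate 1 and 14.9% without replicate 2, so replicate 3 stood slightly apart.

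Id4, Gfra1, Ret, Zbtb16 and Ddx4, genes known from cells of this gate, were all detected in the 3 libraries. Id4 (chromosome 13, 48261228 to 48266026, GRCm38) had 35.5, 37.8 and 36.7 CPM in replicates 1, 2 and 3. Gfra1 (chromosome 19, 58235604 to 58455909) had 116, 120 and 95.4 CPM, and Ret (chromosome 6, 118151745 to 118197718) had 198, 191 and 179 CPM. Both GDNF receptor components were lowest in replicate 3, and Id4 had a CV of 3.25% beside 12% for Gfra1. Zbtb16 (chromosome 9, 48654297 to 48836222) had 476, 461 and 391 CPM, also lowest in replicate 3, and Ddx4 (chromosome 13, 112598333 to 112652475) had 349, 379 and 347 CPM. Per kilobase of merged exons, the scale used here to compare genes of different length, the order was Ddx4 at 119 ± 5.91, Zbtb16 at 83.7 ± 8.58, Ret at 28.0 ± 1.38, Gfra1 at 20.2 ± 2.42 and Id4 at 9.53 ± 0.309 CPM per kilobase (SD, n = 3). Ranges over the libraries did not overlap between any neighbours in this order. Among 19773 nuclear coding genes with a row, Ddx4 ranked 97 and Id4 3603 on this scale.

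**Figure D1:**
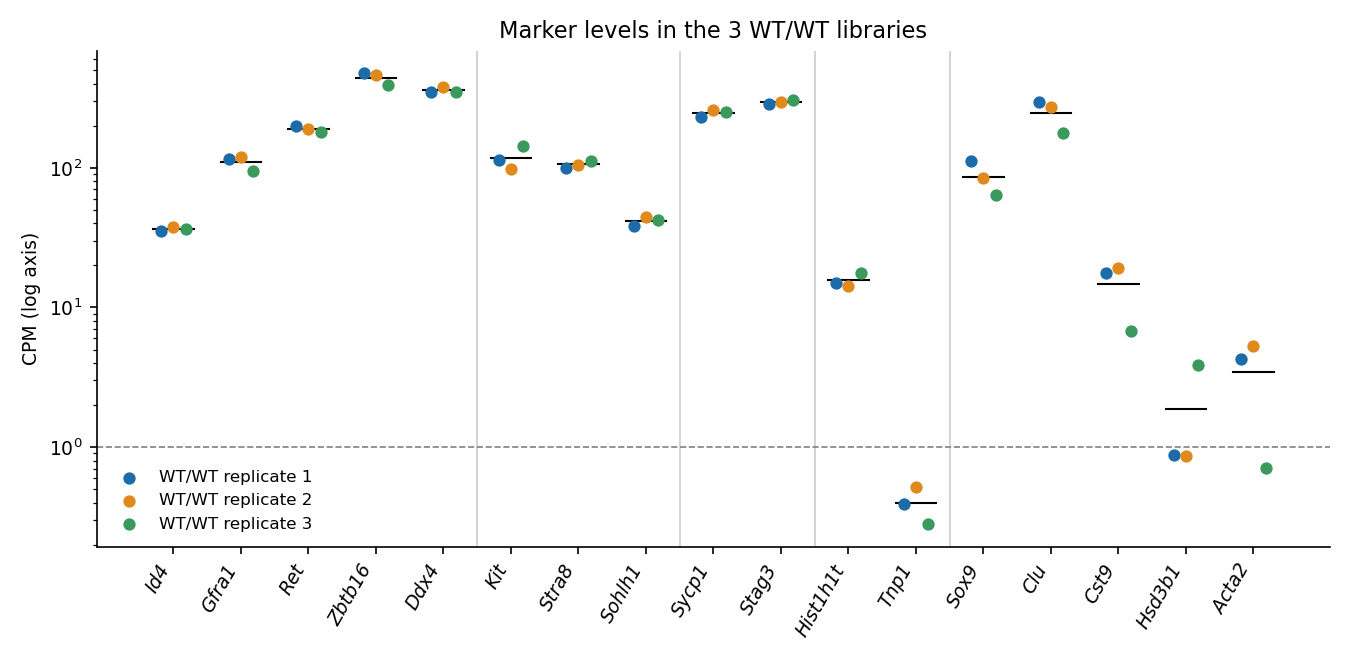
CPM on a log axis for 17 genes in each WT/WT library (coloured points, black bar for the mean, dashed line at 1 CPM), grouped from left to right as gate and germ cell markers, differentiation, meiosis, spermatid, and somatic genes. Id4 lies between 35.5 and 37.8 CPM, whereas Sox9, Clu and Cst9 spread more widely and are lowest in replicate 3.

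The most abundant nuclear coding genes, the set meant here by coding genes unless mitochondrial ones are named, served protein synthesis, chromatin and protein folding. A gene was called detected when it had at least 1 CPM in each library, which held for 11958 of 19773 coding genes (60.5%). Another 4311 genes (21.8%) were under 0.1 CPM in each library, of which 2878 had no count at all. The 60.5% is the share to set beside each count of detected list members below. Of the 25 nuclear genes highest per kilobase, 10 encode ribosomal proteins, 6 are core or linker histones, 3 heat shock chaperones, 2 ubiquitin and 2 translation elongation factors, beside Actb and Ptma. Among nuclear genes the core histone gene Hist1h2ab led at 1308 ± 182 CPM per kilobase, followed by the elongation factor gene Eef1a1 at 716 ± 33.1, the linker histone gene Hist1h1a at 708 ± 134, Hist2h2aa1 at 683 ± 86.3 and the chaperone gene Hsp90ab1 at 680 ± 41.1 (SD, n = 3). Library preparation from total RNA, as used here, keeps histone transcripts that lack a poly(A) tail. All exon bases of Hist2h2aa1 lie under a gene on the opposite strand, and 90.3% are shared with a gene on the same strand. Its own share of these counts is therefore uncertain. For Hist1h2ab, 29.2% of exon bases lie under a gene on the opposite strand. By CPM without regard to length, the largest nuclear values belonged to Mdn1, a giant protein of ribosome assembly, at 2383, 2363 and 2237 CPM. Hsp90ab1, Hspa8, the ubiquitin ligase gene Huwe1, Eef1a1, the dynein heavy chain gene Dync1h1, Ncl, the splicing factor gene Srrm2, Hsp90aa1 and Prrc2c completed the 10 largest. Expression was spread over many genes: the top 5 nuclear coding genes by CPM held 0.996% ± 0.0300 of the gene counts and the top 100 held 7.98% ± 0.0549, and 1200 genes together made up 50% of all coding counts.

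Cell cycle genes were nearly all read. Of 38 cell cycle genes, 37 were detected, with a median of 13.2 CPM per kilobase beside 1.25 over all coding genes and 4.95 over those detected. Mki67, the proliferation marker, had 785, 845 and 949 CPM, and the topoisomerase gene Top2a had 391, 434 and 442 CPM. Genes of the replicative helicase stood close behind on the length-corrected scale, from Mcm3 at 67.6 to Mcm5 at 37.3 CPM per kilobase. At the low end were the kinase inhibitor genes Cdkn2d at 1.68, Cdkn2c at 1.14 and Cdkn1a at 0.489 CPM per kilobase. The 1 member not detected was Ccna1, the meiotic A-type cyclin, with 0.416, 0.434 and 0.281 CPM. The summed level of the list was 3685, 4061 and 4343 CPM, and 26 of the 38 members were highest in replicate 3. Over all detected coding genes 29.7% were highest in that library. Histone genes named Hist took 0.433%, 0.434% and 0.584% of the gene counts, so replicate 3 was highest there too.

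Stem cell genes were nearly all expressed, at widely different levels. Of 32 genes enriched in spermatogonial stem cells, 30 were detected, with a median of 8.10 CPM per kilobase. Lowest in replicate 3 were 21 of the 32, beside 44.2% of all detected coding genes. The highest were the adhesion molecule gene Mcam at 69.3 ± 3.86, the zinc finger factor gene Egr4 at 37.2 ± 1.28, the integrin gene Itgb1 at 36.5 ± 2.39, Ret, and the GDNF-responsive ETS factor gene Etv5 at 25.1 ± 2.22 CPM per kilobase. Taf4b, a subunit of the transcription machinery, and the Polycomb gene Bmi1 followed at 24.1 and 18.6 CPM per kilobase, with Gfra1 between them. Egr4 was even, at 83.1, 78.1 and 78.7 CPM, and Etv5 had 106, 110 and 92.7 CPM. The 4 lowest members included genes near or under the detection level. Shisa6 had 9.44, 9.07 and 7.73 CPM, which is 1.17 CPM per kilobase, and Thy1 had 2.13, 2.02 and 1.48 CPM. Aspa lay around the detection level at 0.833, 1.36 and 1.17 CPM, and Pdx1 had no more than 0.131 CPM in any library. A low level in sorted cells does not distinguish a gene read in few cells from a gene read weakly in many, which holds for every level given here.

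The list of undifferentiated and progenitor genes had 18 of 20 members detected (90%), beside 60.5% of all coding genes. Its median was 6.59 CPM per kilobase, and its leaders were the sex-determination family factor gene Dmrt1 at 110 ± 6.11 and Zbtb16 at 83.7 ± 8.58 CPM per kilobase. Sall4, a zinc finger factor needed by these cells, had 317, 295 and 257 CPM, and the RNA-binding protein gene Lin28a had 127, 125 and 95.9 CPM. Both were highest in replicate 1 and lowest in replicate 3, as was Sall1 at 86.8, 80.7 and 58.9 CPM. Sox3, an X-linked factor of progenitors, was even at 67.0, 65.7 and 68.7 CPM, and so was Crabp1, a retinoic acid binding protein gene, at 25.3, 27.8 and 27.8 CPM. Foxo1 had 154, 147 and 138 CPM. Magea4 and Plac8 were the 2 members not detected, at no more than 0.586 and 0.289 CPM.

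Genes of differentiating spermatogonia were present beside those of the stem cell state. Of 17 with a row, 14 were detected, with a median of 8.07 CPM per kilobase. Stra8, which is induced by retinoic acid, had 100, 105 and 113 CPM (58.9 ± 3.42 CPM per kilobase). Kit, the receptor for stem cell factor and the usual marker of differentiation, had 113, 98.3 and 143 CPM (13.3 ± 2.56 CPM per kilobase). Kit was thus highest in replicate 3, where Gfra1, Zbtb16 and Sall4 were lowest. The helix-loop-helix factor genes Sohlh1 and Sohlh2 stood at 32.3 ± 2.48 and 23.3 ± 4.42, the cyclin gene Ccnd2 at 31.7 and the de novo methyltransferase gene Dnmt3b at 21.4 ± 2.53 CPM per kilobase. Rhox13 and Tex101, germ cell genes of the X chromosome and the cell surface respectively, were at 14.5 and 13.8 CPM per kilobase. Prss50, Ly6k and Nrg1 were not detected, each with under 1 CPM in at least 1 library. The summed list was 800, 813 and 909 CPM, and 10 of 17 members were highest in replicate 3, beside 29.7% of all detected coding genes.

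**Figure D2:**
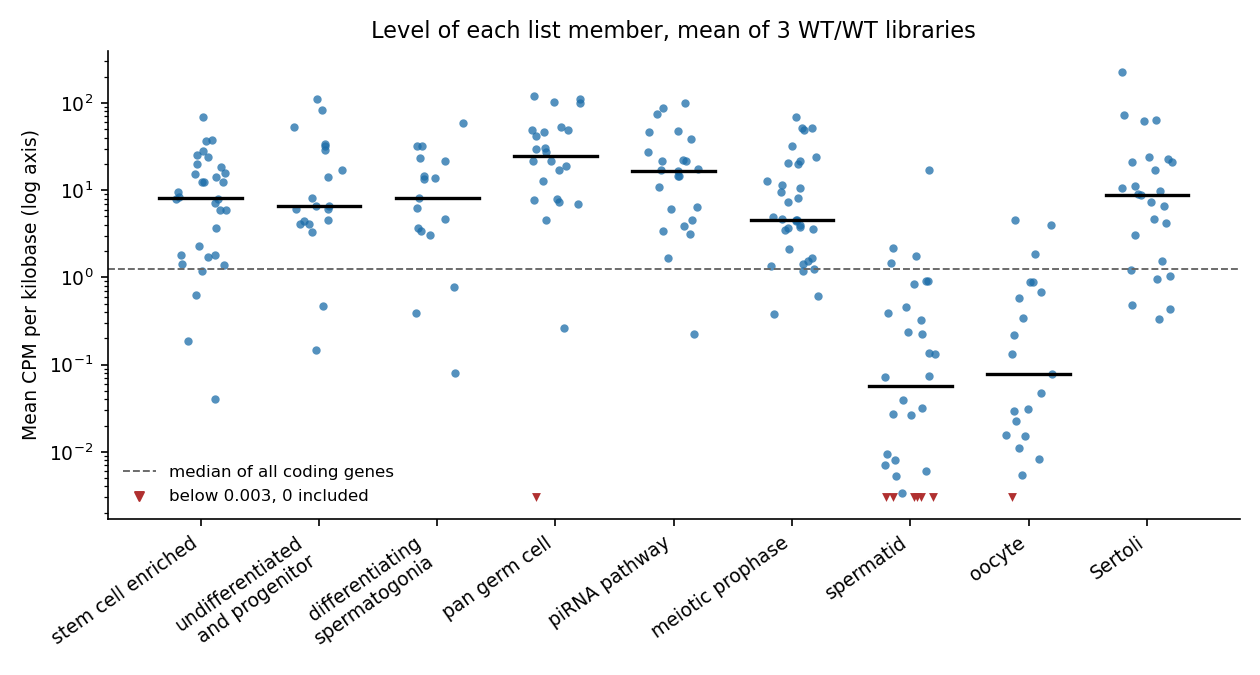
Mean level over the 3 WT/WT libraries, in CPM per kilobase on a log axis, of each member of 9 gene lists (points, black bar for the list's median, dashed line for the median of all coding genes, 1.25). Medians of the germ cell and piRNA lists are 24.4 and 16.8, whereas those of the spermatid and oocyte lists are 0.0561 and 0.0773.

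The general germ cell list had the highest median of the germ cell lists. Of 24 pan germ cell genes, 22 were detected, with a median of 24.4 CPM per kilobase. Behind Ddx4 came Dazl, an RNA-binding translational regulator, at 381, 443 and 437 CPM (110 ± 8.99 CPM per kilobase), the X-linked transcription factor subunit gene Taf7l at 102 ± 6.44 and Mael, a piRNA gene, at 100 ± 7.53 CPM per kilobase. Usp26, Tex19.1, Tex14 (required for the bridges between germ cells) and Tex15 stood between 53.4 and 46.3 CPM per kilobase. Tex13a was the only gene of the list with no count in any library, and Pabpc1l was uneven at 0.197, 0.826 and 1.10 CPM.

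All 24 piRNA pathway genes with a row were detected. This pathway uses small RNAs bound to PIWI proteins to silence transposons in germ cells. The helicase gene Mov10l1, which acts in making piRNAs, had 359, 372 and 367 CPM (87.4 ± 1.57 CPM per kilobase), and Fkbp6 had 119, 135 and 136 CPM. Of the 3 mouse PIWI genes, Piwil2 (MILI) led with 263, 260 and 239 CPM. Piwil1 (MIWI), known from meiotic and later cells, had 22.1, 19.4 and 18.3 CPM, and Piwil4 (MIWI2), known from fetal germ cells, had 20.6, 20.4 and 14.6 CPM. Per kilobase these were 48.1 ± 2.52, 4.57 ± 0.443 and 3.44 ± 0.628 CPM. The ranges of Piwil2 and the other two did not overlap. The lowest members were Mybl1, a meiotic transcription factor gene, at 1.66, and Tdrd6, a Tudor gene of later cells, at 0.224 CPM per kilobase.

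Nearly all meiotic prophase genes were detected, at levels that ranged widely, and few genes of spermatids were. Of 34 meiotic prophase genes, 32 were detected, with a median of 4.60 CPM per kilobase, which is near the 4.95 of all detected coding genes. Sycp1, a filament of the synaptonemal complex, had 232, 261 and 251 CPM (69.8 ± 4.07 CPM per kilobase). The meiotic cohesin genes Stag3 and Smc1b had 285, 298 and 305 CPM and 207, 216 and 208 CPM, and Syce1 had 64.7, 76.5 and 73.8 CPM. Each of these 4 genes varied by less than 10% (CV) between libraries. Sycp3 had 38.3, 43.0 and 39.4 CPM, but a gene on the opposite strand covers 52.2% of its exon bases, and no source used here states whether strand was used in counting. Tcfl5, Syce2 and Ankrd31, the last a factor of break formation, stood at 24.2, 21.5 and 20.4 CPM per kilobase. Prdm9, which marks recombination sites, had 4.56, 5.64 and 5.04 CPM (1.18 ± 0.126 CPM per kilobase). Spata22 and Meiob, which act together on single-stranded DNA, were the members not detected, with Meiob at 0.219, 1.05 and 0.797 CPM.

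Of 32 spermatid genes, 5 were detected and 13 were under 0.1 CPM in every library. The median was 0.0561 CPM per kilobase. Prm1, Prm2, Prm3, the transition protein gene Tnp2, Smcp and H1fnt had no count among 136741108 gene counts, which allows a level of up to 0.0219 CPM for each. Tnp1, the other transition protein gene, had 0.394, 0.516 and 0.281 CPM. The highest member by far was Hist1h1t, the testis linker histone gene, with 15.1, 14.3 and 17.6 CPM (17.2 ± 1.88 CPM per kilobase). This gene is known to be transcribed from meiosis on, and it was listed with spermatids here. Zpbp, Catsper2, Spaca1 and Izumo1, genes of the acrosome, tail or sperm surface, were the other detected members, between 2.19 and 0.917 CPM per kilobase. Acr, the acrosomal protease gene, had 1.84, 1.38 and 0.679 CPM, and Ldhc had 0.679, 0.723 and 0.750 CPM.

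The promoters of these lists also differed in makeup, as far as the RefSeq table covers them. Of the 34 meiotic genes, 30 (88.2%) had an entry, and the median number of CG in the 250 bases before the start was 13.5. Of the 32 spermatid genes, 27 (84.4%) had one, and the median was 2. Over the 27025 genes of the table, which are not limited to coding genes, the median was 6. The coding genes with an entry had a median of 11, and 8.07% of them held CACGTG. The letters CACGTG, searched as such because they read the same on both strands, were in 26.7% of the meiotic genes with an entry (8 of 30) and in 0 of 27 spermatid genes, beside 6.86% of all genes of the table. The cyclic AMP response element TGACGTCA was in 0 and 1 of these genes, beside 1.77% of the table. Among the genes with CACGTG were Sycp1 and Stag3, and also Ddx4 and Mael of the general germ cell list, whereas Dazl of that list lacked it. Coverage was under 80% for the pan germ cell, piRNA, stem cell and oocyte lists and for all coding genes (77.5%), so the check is void for them, and the values over coding genes describe only those with an entry. Methylation and factor binding were not measured in these libraries.

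Oocyte genes and pluripotency genes were read in part. Of 21 oocyte genes, 5 were detected: Tle6 (13.8, 14.7 and 13.2 CPM), the transcription factor genes Figla, Lhx8 and Nobox, and Nlrp14. Figla had 3.73, 4.05 and 2.27 CPM, Lhx8 had 3.57, 4.52 and 5.90 CPM, and Nobox had 1.29, 2.17 and 1.87 CPM. Zp3, of the egg coat, was at 0.811, 0.785 and 0.726 CPM, Zp2 had no more than 0.0234 CPM, and Oas1d had no count. Of 35 genes of pluripotency and primordial germ cells, 21 (60%) were detected, a share near that of all coding genes. Pou5f1, the OCT4 gene, had a mean of 18.2 CPM (8.09 CPM per kilobase), and Dppa4 and Klf4 stood at 9.77 and 8.43 CPM per kilobase. Lin28b had 50.2, 53.0 and 57.5 CPM, and Nr5a2 had 25.8, 26.1 and 32.4 CPM. In contrast Nanog had no count in replicates 1 and 2 and 0.0703 CPM in replicate 3. Gdf3, Tdgf1 and Fgf4 were likewise at no more than 0.0219, 0.0657 and 0.131 CPM.

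**Figure D3:**
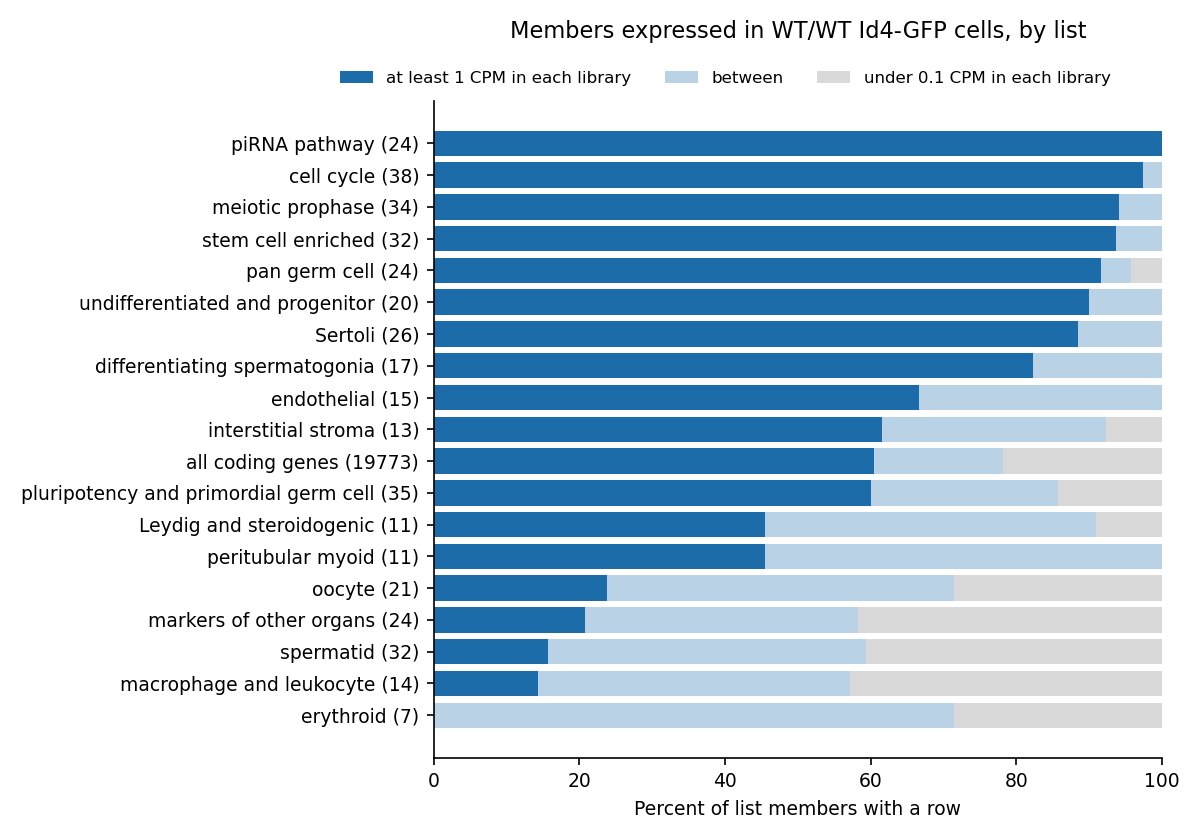
Percent of members of each gene list with at least 1 CPM in each WT/WT library (dark), under 0.1 CPM in each (grey) or between (light), with the number of members in parentheses. All 24 piRNA genes are detected, beside 60.5% of all coding genes, 15.6% of the spermatid list and none of the 7 erythroid genes.

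Several germ cell genes have a more widely used relative, and 24 pairs of related genes were compared within each library on the scale of CPM per kilobase. In most pairs the second member is the germ cell form, but Gfra2 with Gfra1, Nanos2 with Nanos3 and Id4 with Id1 are not of this kind. Of the 20 pairs with more than 3 counts of the second member in every library, that member was higher in all libraries in 9 pairs and lower in all in 10. The 9 include Id4 over Id1, and also Rpl10l over Rpl10, an order that turned with the length used. The 10 include Gfra2 against Gfra1, and Nanos2 against Nanos3 at a log2 ratio of -1.86 ± 0.47. Meiotic cohesin subunits exceeded their mitotic counterparts: the log2 ratio was 1.17 ± 0.04 for Smc1b over Smc1a and 1.92 ± 0.14 for Stag3 over Stag2 (SD, n = 3). Rad21l, also a meiotic cohesin gene, was lower than Rad21 by a log2 ratio of -3.98 ± 0.12. The germ cell forms of transcription factor subunits were also higher, with 1.06 ± 0.05 for Taf7l over Taf7 and 0.81 ± 0.07 for Tbpl1 over Tbp. Slc25a31, the germ cell ADP/ATP carrier gene, stood 0.78 ± 0.18 above Slc25a5. With the longest transcript as length the ratio was 0.37 for Slc25a31, 0.87 for Smc1b, 1.27 for Taf7l and 0.92 for Tbpl1. The size of these ratios thus depends on the length used, whereas their direction did not turn. Tuba3a stood 3.55 ± 0.10 above Tuba1b, and the testis H2B gene Hist1h2ba stood 1.40 ± 0.16 above Hist1h2bc. Another H2B gene, Hist1h2bn, had a mean of 111 ± 40.9 CPM per kilobase, beside 73.7 ± 19.4 for Hist1h2ba. The order of the pair is thus not one over all H2B genes. Cyct and Cycs, the cytochrome c genes, took either order, with log2 ratios of -0.23, 0.33 and 0.45. Rpl10l stood 0.09 ± 0.08 above its X-linked parent Rpl10, but lay at -1.05 when the longest transcript was taken as the length, so no order is given for this pair. Several parents, Rpl10, Slc25a5, Ldha and Pgk1 among them, have near-identical processed copies in the genome, and no source used here states how reads with several positions were counted, so ratios against them are uncertain.

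In the 4 glycolysis pairs the form of later cells was below its relative. Pgk2 had 9, 2 and 5 counts in replicates 1, 2 and 3, Gapdhs 1, 4 and 1, and Aldoart1 0, 2 and 1. The poly(A)-binding retrogene Pabpc2 had 7, 2 and 1 counts. Among their relatives Gapdh, Aldoa and Pabpc1 were at 58.5, 52.1 and 131 CPM per kilobase. Ldhc stood below Ldha by a log2 ratio of -2.69 ± 0.11, Ccna1 below Ccna2 by -6.77 ± 0.52, Hspa2 below Hspa8 by -5.87 ± 0.10 and Hist1h1t below Hist1h1e by -2.66 ± 0.22. Pdha2, the autosomal pyruvate dehydrogenase retrogene, was closer to its parent Pdha1, at -1.48 ± 0.27, and the meiotic proteasome gene Psma8 to Psma7, at -1.70 ± 0.25. The ratio of Cox6b2 to Cox6b1 was -3.56 ± 0.12. With the longest transcript as length the ratios were -2.83 for Cox6b2, -3.35 for Ldhc and -2.34 for Psma8. Energy genes of later cells were not uniformly low, since Slc25a31 and Cyct stood at 30.4 and 21.6 CPM per kilobase and Pdha2 had 299, 445 and 413 counts.

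Per kilobase of merged exons, Ret led the receptor tyrosine kinases and Gfra1 the GDNF co-receptors. Of 226 receptor genes over 9 lists, 141 were detected (62.4%), a share near the 60.5% of all coding genes. The highest per kilobase were the integrin gene Itgb1 at 36.5 ± 2.39, Ret at 28.0 ± 1.38, the Wnt co-receptor gene Ptk7 at 25.9 ± 0.391, the insulin-like growth factor receptor gene Igf1r at 23.5 ± 1.80 and Gfra1 at 20.2 ± 2.42 CPM per kilobase (SD, n = 3). Ranges over the libraries overlapped for Igf1r and Gfra1, although Igf1r was higher within each library. Those of the neighbours Ret and Ptk7 were separate but close on merged exons. Igf1r has 16791 bases of merged exons but 11409 in its longest transcript, against 6763 and 5456 for Ret and 5384 and 4235 for Ptk7. The longest transcript as length thus raises Igf1r more than Ret or Ptk7. Its place beside them depends on the length used. Igf1r had 422, 398 and 362 CPM. Of the receptor tyrosine kinases, 37 of 58 were detected. On merged exons, Ret, Ptk7 and Igf1r were followed by Ryk at 14.8, Kit at 13.3, Ddr1 at 13.2, Tyro3 at 12.3 and Axl at 11.2 CPM per kilobase. Ros1 had no count, and Musk, Styk1 and Csf1r had at most 0.062 CPM. Among GDNF family co-receptors Gfra1 was followed by Gfra4 at 2.06, Ncam1 at 1.74, Gfra3 at 1.55, Sdc3 at 0.833 and Gfra2 at 0.672 CPM per kilobase, and Gfral had no count. The log2 ratio of Gfra2 to Gfra1 was -4.92 ± 0.15.

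Receptors of the TGF-beta family were widely expressed, with 13 of 14 detected. The BMP receptor gene Bmpr1a had 95.2, 110 and 111 CPM and Bmpr2 had 106, 96.4 and 98.8 CPM, the activin receptor gene Acvr2b had 44.5, 44.4 and 51.0 CPM, and Acvr1c stayed at or below 0.351 CPM. Amhr2, the receptor for anti-Mullerian hormone and a gene of somatic gonad cells, had 23.4, 19.3 and 12.6 CPM, lowest in replicate 3. Of 17 genes on the list of Wnt receptors, which leaves out Ptk7 and Ryk, 14 were detected, led by the co-receptor gene Lrp6 at 12.3, the ubiquitin ligase gene Znrf3 at 8.29 and Fzd3 at 7.67 CPM per kilobase. Lgr5, a stem cell gene of the gut, had 0.394, 0.496 and 0.445 CPM. Notch2 and Notch1 stood at 16.2 and 6.00 CPM per kilobase and Notch4 and Notch3 at 0.335 and 0.318. Among 29 cytokine receptor genes 19 were detected, led by the interferon receptor gene Ifnar1 at 13.7 and the LIF receptor gene Lifr at 7.66 CPM per kilobase, with Il6st, the shared signalling chain, at 5.77. Chemokine receptors were the least represented family, with 1 of 22 detected. That gene was Cxcr4, the receptor for CXCL12, with 3.70, 3.57 and 4.33 CPM, and 11 members were under 0.1 CPM in every library. Of 26 integrin genes, 14 were detected (53.8%), beside 60.5% of all coding genes. Itga6, which pairs with Itgb1 in laminin receptors, had 114, 117 and 105 CPM.

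Of 49 nuclear receptor genes 33 were detected (67.3%), beside 60.5% of all coding genes, and 24 had at least 2 CPM in each library. On merged exons, Rxra at 17.9 ± 0.889 and Nr1h2 at 17.6 ± 0.793 CPM per kilobase were highest and took either order between libraries. Rara, a retinoic acid receptor gene, was below both in each library on that length, at 15.6 ± 1.52 CPM per kilobase. Merged exons and longest transcript have 5462 and 4905 bases for Rxra, 3354 and 1999 for Nr1h2, and 4365 and 3384 for Rara. The order of these genes therefore depends on the length used. Rarg, the retinoic acid receptor gene of undifferentiated spermatogonia, had 31.3, 30.2 and 23.4 CPM (6.64 CPM per kilobase), and Rarb was not detected, at 0.570, 0.372 and 0.422 CPM. The clock gene Nr1d2 and its relative Nr1d1 stood at 12.0 and 11.9 CPM per kilobase. For Nr2f6, at 14.2 CPM per kilobase, 54.4% of exon bases lie under a gene on the opposite strand. Hnf4a and Hnf4g, genes of the liver and gut, had no count. Of 15 genes that handle retinoids, 12 were detected. Among them Crabp1 led at 33.6, followed by the retinal dehydrogenase genes Aldh1a1 at 15.4 and Aldh1a2 at 7.95 CPM per kilobase. The retinoic acid degrading enzyme genes Cyp26a1 and Cyp26b1 were at 1.59 and 1.22 CPM per kilobase, and Lrat, which esterifies retinol, had 0.197, 0 and 0.0234 CPM.

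Ligand genes were led by those shared with Sertoli cells. Of 41 genes, 23 were detected (56.1%), beside 60.5% of all coding genes, with a median of 0.612 CPM per kilobase. The highest were the inhibin subunit genes Inha at 22.7 and Inhbb at 9.76 CPM per kilobase, then Pdgfa at 6.85, Kitl, which encodes stem cell factor, at 6.55, Bmp7 at 6.44, the Notch ligand gene Jag2 at 5.33, Pdgfb at 5.01 and Tgfb1 at 4.89. Inha, Inhbb and Kitl are also on the list of Sertoli cell markers, as are Gdnf and Dhh. The ligand for Ret, Gdnf, had 3.33, 2.42 and 4.71 CPM (0.949 CPM per kilobase).

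Among transcription factor genes Dmrt1 and Zbtb16, both known from spermatogonia, had the largest means. Over 21 families 285 of 466 genes were detected (61.2%), a share near that of all coding genes. Dmrt1 led at 110 ± 6.11, then Zbtb16 at 83.7 ± 8.58, Jund at 82.6 ± 6.36, the T cell factor gene Tcf7 at 65.5 ± 4.31, Sall4 at 52.3 ± 5.53 and Tcf3, which encodes the E proteins that Id factors bind, at 52.1 ± 0.823 CPM per kilobase (SD, n = 3). Zbtb16 and Jund took either order between libraries, as did Sall4 and Tcf3. Egr4, the sterol factor gene Srebf2, Mga, Tfdp1, Sox4, Sox3, Sohlh1, Sox12, Foxo3, Egr1 and Etv5 followed, between 37.2 and 25.1 CPM per kilobase. Mga, a partner of MAX, had 560, 566 and 547 CPM, the largest uncorrected level of the leading 25. The remaining genes of the 25 were Foxm1, Klf10, Prdm2, Sohlh2, Usf1, Hif1a, Sox9 and Sp1. For Jund and Sox4, 52.6% and 54.6% of exon bases lie under a gene on the opposite strand. Families differed: E2F with 10 of 10, Smad with 8 of 8, Egr and Wt1 with 5 of 5 and Sall and Zbtb with 45 of 47 members detected stood at 1 end, and Hox with 7 of 39 and Pax with 2 of 9 at the other. The Hox genes detected were Hoxb3, Hoxb4, Hoxb6, Hoxb7, Hoxb8, Hoxb9 and Hoxd8, with none above 2.67 CPM per kilobase. Id4 stood above Id1 by a log2 ratio of 4.30 ± 0.36.

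The enzymes of DNA methylation, the process that the series addresses, were nearly all detected, with 19 of 20. The maintenance enzyme gene Dnmt1 had 557, 582 and 632 CPM (75.5, 78.9 and 85.7 CPM per kilobase), and its partner Uhrf1 had 209, 230 and 253 CPM (54.1 ± 5.18). Of the de novo enzymes, Dnmt3b had 107, 97.3 and 123 CPM (21.4 ± 2.53 CPM per kilobase) and Dnmt3a, the gene deleted in the other genotype, had 206, 192 and 180 CPM (11.6 ± 0.796). The ranges of these 4 genes per kilobase did not overlap. Dnmt3l, the cofactor known from fetal germ cells, had 1.31, 1.82 and 0.773 CPM and was the member not detected. The demethylation gene Tet3 was at 12.0 CPM per kilobase, and Tet2 and Tet1 were at 0.849 and 0.389.

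X-linked genes were detected about as often as autosomal ones. Of 774 X-linked coding genes, 451 were detected (58.3%), beside 60.7% of autosomal genes, and X-linked genes took 1.75% ± 0.0416 of the gene counts. The median level of detected X-linked genes was 3.84 CPM per kilobase against 4.98 for autosomal genes, a ratio of 0.797, 0.792 and 0.733 in replicates 1, 2 and 3. Taf7l and Huwe1 were among the highest X-linked genes. Of 55 Y-linked coding genes 10 were detected (18.2%) and 80% were under 0.1 CPM in each library. Among 13 Y-linked genes on a list chosen for this chromosome 9 were detected: the ubiquitin-activating enzyme gene Uba1y led with 188, 198 and 198 CPM (48.1 ± 1.37 CPM per kilobase), followed by Rbmy at 18.9, Usp9y at 8.64 and Eif2s3y at 7.73 CPM per kilobase. Sry, Sly, Ssty1 and Ssty2 had no count, and for Sly, Ssty1 and Ssty2, which have many near-identical copies, this is uncertain. Mitochondrial coding genes took 1.58% ± 0.0729 of the gene counts, with mt-Co1 at 5007, 5324 and 5416 CPM. The rows mt-Atp6, mt-Co2, mt-Co3 and mt-Atp8 were at 36.4 CPM per kilobase or less, against 308 or more for the other 9, and near-identical nuclear copies make these rows uncertain.

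Genes of somatic testis cells were also read, above all those of Sertoli cells, the supporting cells that surround the germ cells. Of 26 Sertoli markers 23 were detected, with a median of 8.91 CPM per kilobase. Clu, a secreted chaperone gene, had 297, 271 and 178 CPM, Sox9, the factor that specifies Sertoli cells, had 112, 83.9 and 63.7 CPM, and Aard had 96.3, 92.1 and 68.2 CPM. All 3 were lowest in replicate 3. Cst9, a cystatin gene, had 17.8, 19.3 and 6.77 CPM, and Rhox8, an X-linked homeobox gene, had 82.6, 71.5 and 67.7 CPM. Inha was even, at 32.0, 33.8 and 34.4 CPM. Tuba3a, at 307, 347 and 371 CPM, took the opposite order and is known from germ cells as well. The summed level of the list was 1445, 1369 and 1183 CPM in replicates 1, 2 and 3, and 1138, 1022 and 812 CPM without Tuba3a, and 17 of 26 members were lowest in replicate 3. Over all detected coding genes 44.2% were lowest in that library. In bulk samples fewer cells of a type and less RNA per cell cannot be told apart, and whether these reads come from sorted germ cells or from other cells was not tested. The part of Sertoli reads in the levels of Inha, Inhbb, Kitl, Gdnf, Sox9, Amhr2 and other genes named above was not tested either.

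Other somatic types left weaker traces. For Leydig cells, the steroid-making cells between tubules, 5 of 11 genes were detected. Of all 11, detected or not, 9 were highest in replicate 3. Over all detected coding genes 29.7% were, a share that leaves out genes as low as some of these. Nr5a1, also on the list, had 25.4, 22.1 and 21.4 CPM and was lowest in replicate 3. Hsd3b1 had 0.876, 0.867 and 3.84 CPM, Cyp17a1 had 0.175, 0.351 and 2.41 CPM, Cyp11a1 had 0.482, 0.723 and 2.58 CPM, and Hsd17b3 had 12.4, 12.3 and 21.3 CPM. Insl3 and Lhcgr stayed at or below 0.187 and 0.351 CPM, and Hsd3b6 had no count. The summed Leydig list was 63.7, 59.7 and 79.3 CPM. Among 11 genes of the muscle-like peritubular cells 5 were detected. Acta2 had 4.25, 5.33 and 0.703 CPM and Myh11 had 10.6, 11.7 and 3.21 CPM, again lowest in replicate 3. Of 13 stromal genes 8 were detected (61.5%), and of 15 endothelial genes 10 (66.7%), beside 60.5% of all coding genes. Their medians were 0.301 and 0.627 CPM per kilobase. Stromal genes summed to 135, 140 and 109 CPM, of which the collagen gene Col1a1 gave 69.8, 71.4 and 52.0 CPM. Endothelial genes summed to 69.5, 77.7 and 58.2 CPM, of which Plvap gave 22.6, 26.7 and 15.9 CPM. Blood cells were hardly seen. Of 14 macrophage and leukocyte genes 2 were detected, Mrc1 at 8.48, 8.63 and 6.98 CPM and Cd68 at 1.16, 1.45 and 1.69 CPM, and the defining genes Lyz2 and C1qb had no count. None of 7 erythroid genes was detected, the largest value being 0.789 CPM for Hba-a1 in replicate 1. For comparison, 24 genes that mark other organs summed to 18.2, 16.7 and 14.2 CPM.

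**Figure D4:**
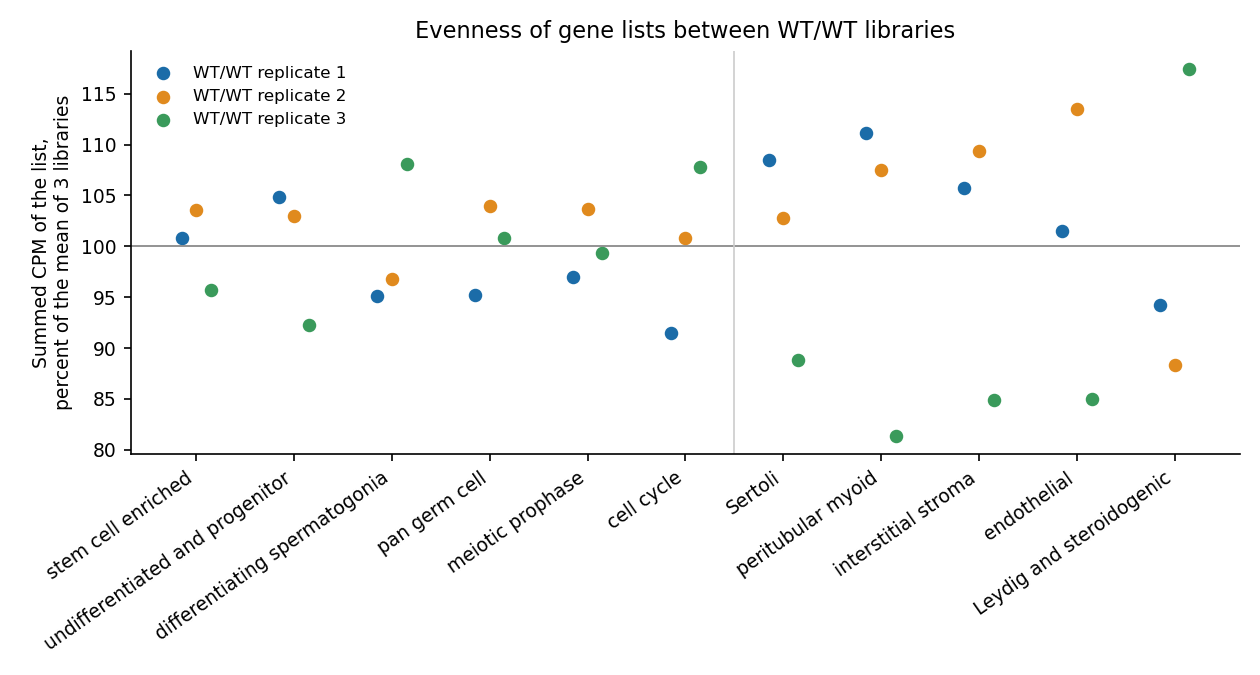
Summed CPM of 11 gene lists in each WT/WT library (coloured points), as a percent of the mean of the 3 libraries; a vertical line divides germ cell and cell cycle lists from somatic lists. Replicate 3 is lowest for the Sertoli (88.8%), myoid (81.4%), stromal (84.9%) and endothelial (85.0%) lists and highest for the Leydig (117%), differentiating (108%) and cell cycle (108%) lists.

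Most genes were steady between the libraries. Over 8252 coding genes with a mean of at least 10 CPM the median CV of CPM was 6.38%, with 90% of genes between 1.54% and 17.4%, and 251 genes exceeded 20%. The 15 most variable named genes were Myo5b, Cst9, Ildr2, Lama2, Sorbs2, Dmrta1, Creb5, Cldn11, Npr1, Sgsm1, Ptprt, Fgd5, Rin2, Hist1h2bn and Fndc5. Of these, 14 were lowest in replicate 3, and the exception was the H2B gene Hist1h2bn, which had 33.8, 32.7 and 60.2 CPM. Over all detected coding genes 44.2% were lowest in replicate 3. The 15 genes were picked by their CV over the same 3 libraries, so that share is not a like background for them. Myo5b, an unconventional myosin gene, had the largest CV at 48.1%, with 34.0, 26.9 and 11.3 CPM. Cldn11, the tight junction gene of Sertoli cells, had 22, 19.8 and 9.32 CPM, and Npr1, a natriuretic peptide receptor gene, had 74.7, 55.0 and 32.8 CPM. Cst9 and Cldn11 are on the Sertoli list, and the part of somatic reads in the variation of the other genes was not tested.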

How the data were processed

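Per the labels' protocols, RNA of the sorted Id4-GFP cells was isolated by PicoPure, cleared of DNA and prepared by a SMARTer stranded kit for total RNA. The authors deposited raw counts of reads for each gene or transposable element, with 1 file per sample. The submitters' processing notes name STAR 2.7.0a, featureCounts 1.5.1 and the build mm10. No source used here states which annotation release was counted, whether strand was used or how reads with several positions were handled. Levels of overlapping genes and near-identical copies carry that uncertainty.

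CPM were computed over the 54087 gene rows, leaving out 1205 transposable element rows. Symbols were matched to GENCODE M21 on GRCm38 (the mm10 assembly), 28499 directly and 246 through RefSeq synonyms. The other rows, 11.6% of gene counts, have no coordinates here and entered only the totals. Detected means at least 1 CPM in each library. The spread came from edgeR 4.0.16 in R 4.3.3 with TMM factors and an intercept only, and was tested on simulated data. Promoters came from RefSeq. Named genes were drawn from the 25 coding genes highest per kilobase, the 10 highest by CPM, and up to 8 highest and 4 lowest members per list. In lists of up to 14 genes all members qualified. The 25 and 20 leading transcription factors and receptors, the 15 genes with the largest CV, and the pairs were added. Not every gene that qualified is named above, so the genes shown for a list can be a selection. Others named were chosen after their values were seen. The members and lists were chosen with earlier results of these data known. Alternatives were other scalings, thresholds and lengths, and leaving out each library. The KO/KO libraries were left out because no genotype comparison is made.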

Additional observations from a re-analysis of the deposited data

Results flagged for a closer look

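Rows of transposable element families, which entered none of the levels given above, held on average 14.6% of all counts in the 3 WT/WT libraries (14.7%, 14.9% and 14.1% in replicates 1, 2 and 3). This is a signal in data outside the described gene rows. No control sample in these libraries sets a background for it, and counts of repeat families depend on how reads with several positions were handled.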

How the results depend on the processing

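The number of coding genes detected lay between 11086 and 12724 under every alternative tried, beside 11958. TMM and DESeq2 factors moved the mean CPM of 12 followed genes by less than 0.3%. Leaving ribosomal RNA and mitochondrial rows out of the total raised every CPM about 1.11-fold, and adding transposable element rows lowered it to between 0.853-fold and 0.855-fold. The total of nuclear coding rows alone, an alternative chosen after seeing the data, raised it about 1.61-fold. Counts of list members moved by over 1.5 times where few members were near the threshold. At 0.5 CPM, 8 spermatid, 8 oocyte, 8 myoid, 8 other-organ and 2 chemokine receptor genes were detected. At 2 CPM, 5 stromal, 1 macrophage and 1 other-organ gene, 4 LIM homeobox and 5 T-box genes were. With the total of nuclear coding rows the counts were 8 spermatid, 8 other-organ and 2 chemokine receptor genes, and with all rows 1 macrophage gene. Leaving out 1 library gave 1 to 2 chemokine receptor genes and a common coefficient of variation from 9.44% to 14.9%. With the longest transcript as length, 21 of the 25 highest genes remained. Log2 ratios moved from 0.09 to -1.05 for Rpl10l against Rpl10, from -3.56 to -2.83 for Cox6b2, from -2.69 to -3.35 for Ldhc and from -1.70 to -2.34 for Psma8, since the length itself sets these ratios. Others moved by more than their SD as well, among them Slc25a31 from 0.78 to 0.37 and Smc1b from 1.17 to 0.87. Only the order of Rpl10l and Rpl10 turned. Orders within the gene lists were not recomputed with that length. No paired analysis was possible because 1 group is described and no test was made. Depth limits single genes to about 0.07 CPM per library.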
